A study of Homo sapiens with 6 samples.

Results

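The collagen chain genes are the genes whose symbol in the count table has the form COL, a number, A and a number. The table held 43 of them among 23228 listed genes, namely 11 fibrillar, 6 type IV and 26 of other classes, and 32 had enough reads to be tested. The classes were assigned by hand from textbook knowledge of the family. RNA-seq was done on U2OS, an established human osteosarcoma line, transfected with siRNA against ALKBH5 (3 libraries, here called the knockdown libraries) or with a scrambled siRNA (3 libraries). All cells were grown in serum-containing medium, received the same lipid reagent and were harvested at 48 hours. ALKBH5 removes the methyl group from N6-methyladenosine in RNA. Effects of ALKBH5 loss cannot be told apart from other effects of either siRNA. The labels do not say whether replicates came from separate cultures, so the p-values rest on a library-to-library spread that could be technical.

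Collagens are secreted or membrane proteins built from 3 alpha chains wound into a triple helix, in which glycine recurs at a fixed spacing. Fibrillar collagens form the fibers of bone, skin and tendon, and in bone the main one is type I, made of chains from COL1A1 and COL1A2. Type IV collagen forms the sheet-like network of basement membranes. Other classes link or coat fibrils (the FACIT collagens, fibril-associated collagens with interrupted helices), form beaded filaments, hexagonal networks or anchoring fibrils, or span the cell membrane. The 6 type IV genes lie in head-to-head pairs, each pair transcribed outward from a common stretch of DNA.

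The common stretch between the closest RefSeq start sites is shown for COL4A1 and COL4A2, which were both higher. It is also shown for COL4A5 and COL4A6, of which COL4A6 was lower and COL4A5 did not pass. COL4A6 could be tested only because of its scrambled libraries. The part of these stretches in the expression values was not tested. Capitals mark copies of the CCAAT box (CCAAT, or ATTGG on the other strand) and the GC box (GGGCGG, or CCGCCC). Both are on the plus strand of GRCh38.p14 and come from RefSeq; the reads were aligned to hg19, and no coordinate of the files was used. The first runs from COL4A1 on the left to COL4A2 on the right, chr13:110307158-110307283, and is the whole 126 bases between the starts. The second is the 250 bases next to COL4A5, chrX:108439588-108439837, of the 379 bases between COL4A6 on the left and COL4A5 on the right.
COL4A1/COL4A2: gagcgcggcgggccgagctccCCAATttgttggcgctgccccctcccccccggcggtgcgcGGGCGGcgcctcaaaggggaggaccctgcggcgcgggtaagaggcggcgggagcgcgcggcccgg
COL4A6/COL4A5: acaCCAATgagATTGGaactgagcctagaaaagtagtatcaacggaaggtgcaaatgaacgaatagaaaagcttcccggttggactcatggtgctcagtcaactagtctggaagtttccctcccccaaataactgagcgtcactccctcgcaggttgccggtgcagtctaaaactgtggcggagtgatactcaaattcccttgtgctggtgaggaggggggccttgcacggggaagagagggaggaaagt
The COL4A1/COL4A2 stretch held 1 CCAAT box and 1 GC box and was 80.2% G or C. The printed part of the COL4A6/COL4A5 stretch held 2 CCAAT boxes and 0 GC boxes and was 51.2% G or C. Neither printed sequence held the TATA box TATAAA on either strand. The rest of the COL4A6/COL4A5 stretch, next to COL4A6, was left out of these counts. Across all 35116 RefSeq promoter windows of 300.0 bases, 34.6% held a CCAAT box, 45.0% a GC box and 11.5% a TATA box. Windows were found for 31 of the 43 collagen genes, and only the first window of each gene was searched. Of these first windows 10 held a CCAAT box, 18 a GC box and 5 a TATA box. The shares over all windows count every window of a gene, so the measures differ. These matches are letters in a window and show no binding.

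The libraries held 18817181 to 23410007 reads in genes. ALKBH5 itself stood at 19.4, 16.2 and 15.7 CPM (read counts scaled to library size in genes, with a factor between libraries) in the knockdown libraries, against 138, 148 and 143 CPM in the scrambled libraries. Reads placed uniquely but outside genes were 17.3 to 18.6% of uniquely placed reads in the knockdown libraries and 15.0 to 15.5% in the scrambled libraries, and the part of this in the results was not tested.

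Collagen transcripts as a whole were more abundant in the knockdown libraries. They took 1.05%, 0.963% and 1.05% of all reads in genes in the knockdown libraries, against 0.586%, 0.554% and 0.492% in the scrambled libraries. The groups did not overlap. In summed level this was 10448 ± 383 CPM in the knockdown and 5321 ± 440.1 CPM in the scrambled libraries (SD, n = 3 each). In such bulk RNA, more cells that make collagen and more collagen RNA per cell cannot be told apart.

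The make-up of the collagen reads also differed between the groups. Fibrillar chains held 39.5%, 37.9% and 33.6% of collagen reads in the knockdown libraries, against 53.7%, 54.2% and 49.9% in the scrambled libraries. Type IV chains held 32.3%, 35.1% and 39.0% in the knockdown libraries, against 20.6%, 20.5% and 24.6% in the scrambled libraries. Neither class overlapped between the groups. The fibrillar share was smaller while the summed fibrillar level was not, at 3864 ± 305 CPM in the knockdown libraries and 2804 ± 344 CPM in the scrambled libraries. Beaded filament chains (type VI) took 18.9%, 16.1% and 17.9% of collagen reads in the knockdown libraries and 15.0%, 13.4% and 13.4% in the scrambled libraries. FACIT chains took 6.39%, 7.27% and 6.37% in the knockdown libraries and 9.05%, 10.1% and 10.1% in the scrambled libraries. These shares are read shares, so long transcripts weigh more than short ones.

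**Figure D1:**
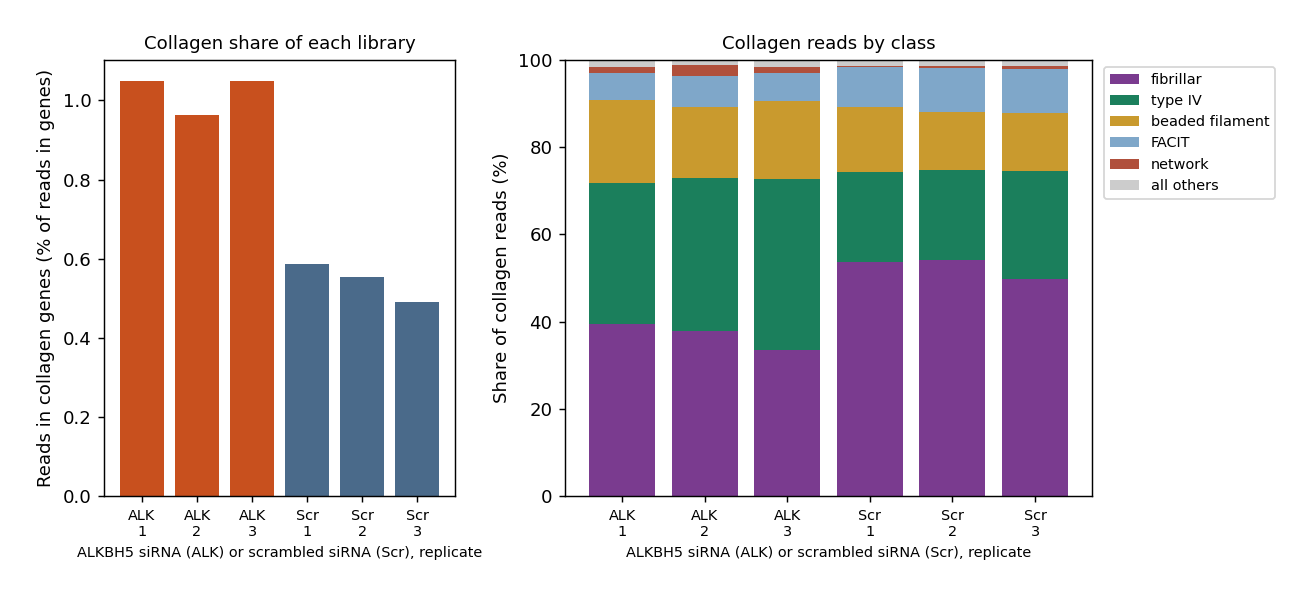
Left, reads in the 43 collagen genes as a percentage of reads in genes, 1 bar per library; right, the share of these reads in each class, in percent. The 3 knockdown libraries sit near 1% and the 3 scrambled libraries between 0.492% and 0.586%, and the type IV share is larger in each knockdown library.

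Of the 32 tested collagen genes 17 rose and 6 fell in the knockdown libraries at an adjusted p under 0.05, and 9 did not pass. This must be read against a very wide response, because 61.6% of all 14504 tested genes passed (30.8% of all were higher and 30.8% lower). The median log2 fold change was 0.47 over the tested collagen genes and 0.01 over all tested genes. At a mean of at least 10 CPM, 17 of 22 collagen genes rose and 1 fell, COL3A1. Of all tested genes at that level 33.0% were higher and 33.3% lower. Under 10 CPM, 0 of 10 collagen genes rose and 5 fell, COL24A1 and COL4A6 among them. Of all tested genes there 25.6% were higher and 24.6% lower. A link of direction with level was not tested. When a change of more than 1.5-fold was asked for, 12 collagen genes were higher and 4 lower, where 24.8% of all tested genes passed, 13.0% higher and 11.8% lower. In 18 tested collagen genes every knockdown library was above every scrambled one and in 5 every one was below; separation of this kind was seen in 67.4% of all tested genes, 33.5% upward and 33.9% downward. COL24A1 and COL4A6 reached the read minimum in scrambled libraries only and so had to differ if they were tested at all.

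**Figure D2:**
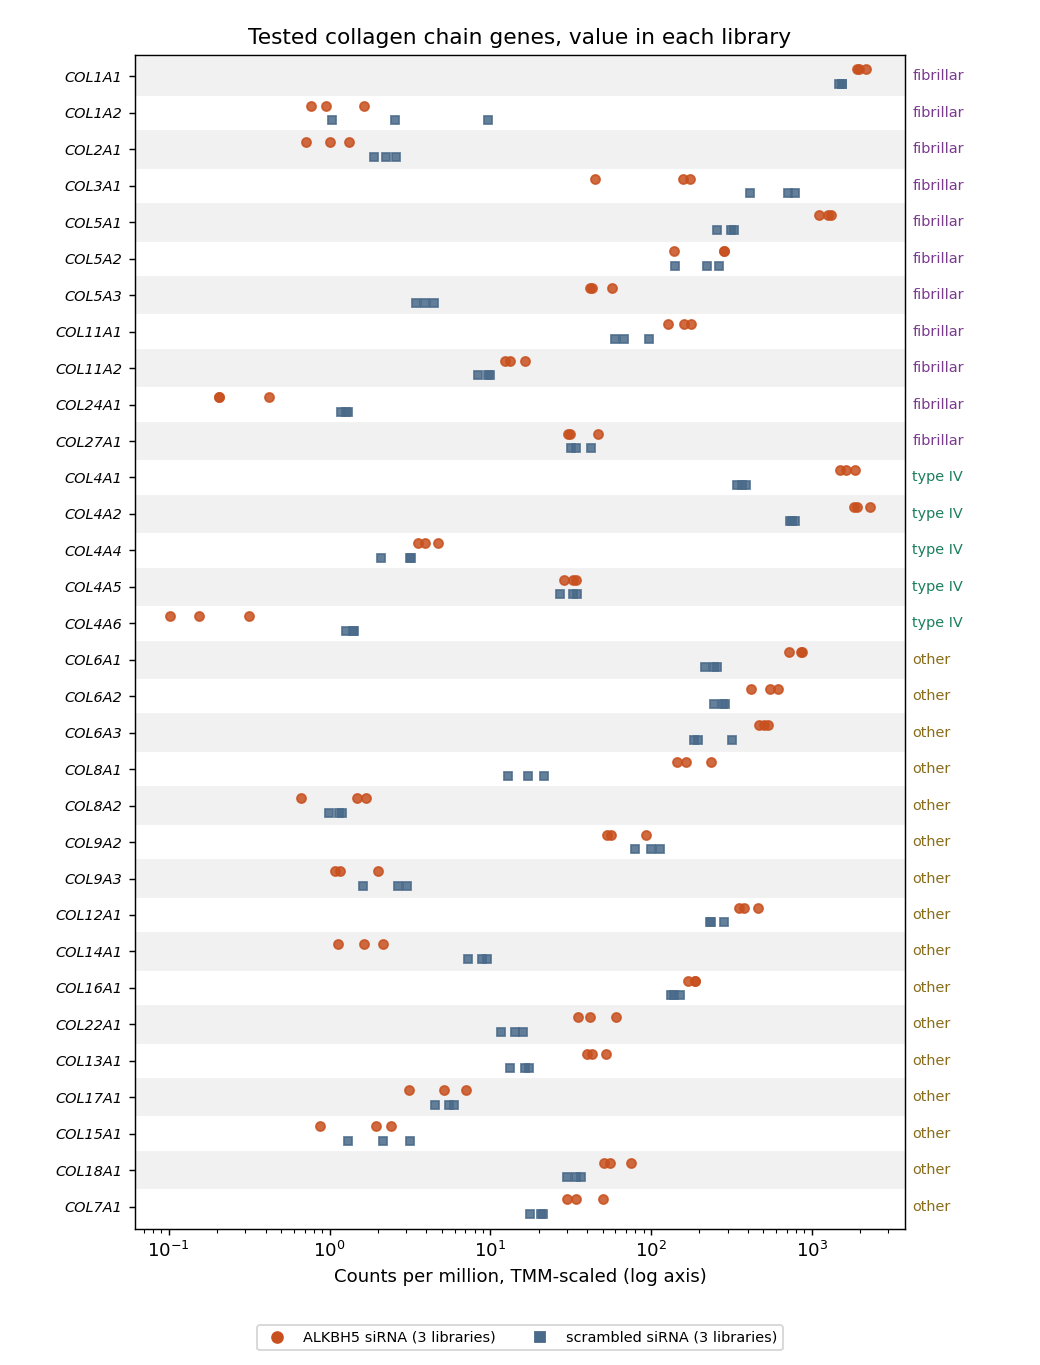
CPM on a log axis of each of the 32 tested collagen genes, with 1 circle per knockdown library above 1 square per scrambled library, ordered by class. COL5A3 and COL8A1 show the widest gap upward, and COL3A1, COL14A1, COL24A1 and COL4A6 have all knockdown points to the left of all scrambled points.

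By class, 5 of 11 tested fibrillar genes rose and 3 fell, with a median log2 fold change of 0.18. Of the 5 tested type IV genes 2 rose and 1 fell (median 0.54), and of the 16 tested genes of other classes 10 rose and 2 fell (median 0.75). The differences between these classes were not tested. The lower type IV gene is COL4A6, which could be tested only because of its scrambled libraries. The same holds for COL24A1, 1 of the 3 lower fibrillar genes.

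**Figure D3:**
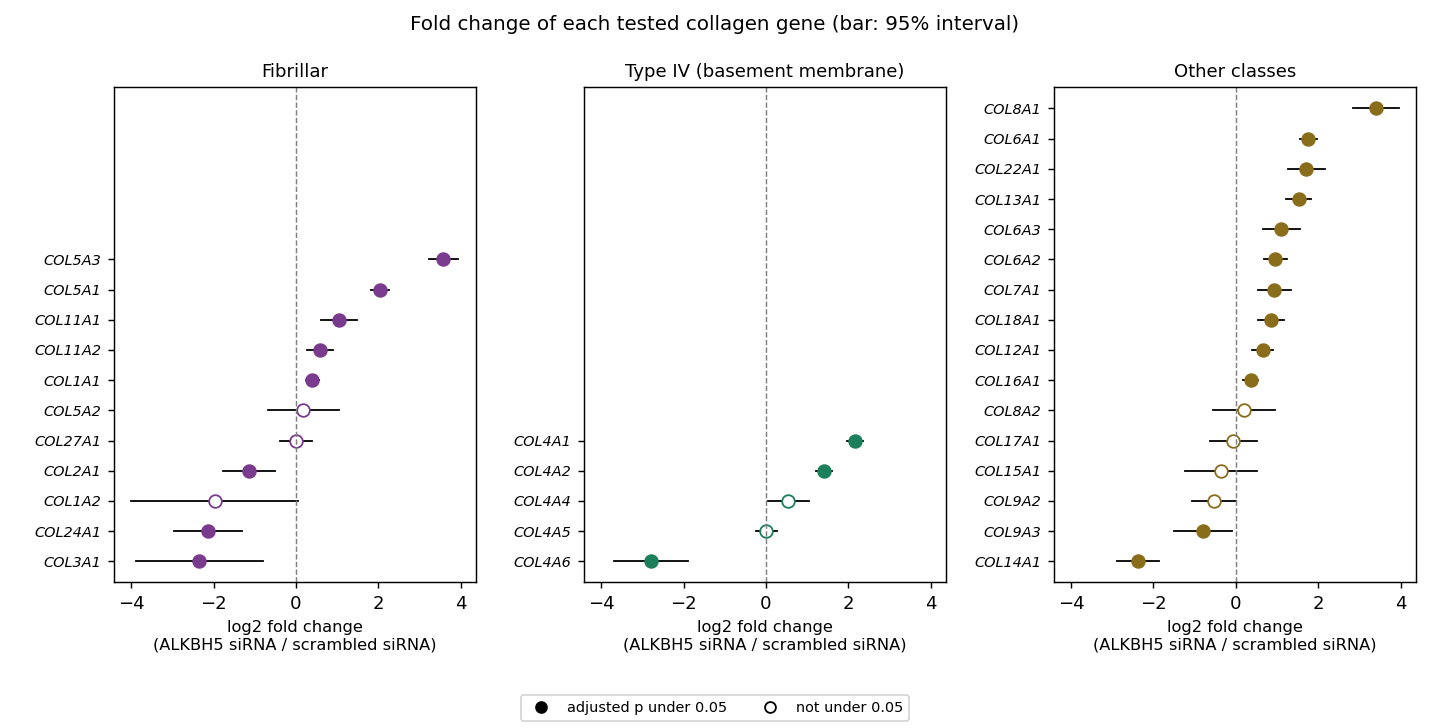
log2 fold change (ALKBH5 siRNA over scrambled siRNA) of each tested collagen gene with its 95% interval, in a panel per class; filled points passed an adjusted p of 0.05. Each class spans both sides of 0, from -2.35 to 3.58 in the fibrillar, -2.80 to 2.17 in the type IV and -2.38 to 3.41 in the other genes.

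Among the fibrillar genes, COL1A1, which encodes the alpha 1 chain of type I collagen, was the most abundant collagen transcript per length in the scrambled libraries. It had 2164, 1973 and 1913 CPM in the knockdown libraries, against 1547, 1549.7 and 1482 CPM in the scrambled libraries, a rise in every library of small size (log2 fold change 0.40, SE 0.07, adjusted p = 0.00048). Its partner chain COL1A2 was almost absent, with 1.64, 0.947 and 0.768 CPM in the knockdown libraries, against 1.04, 9.70 and 2.56 CPM in the scrambled libraries. The scrambled value of 9.70 CPM came from 202 reads in replicate 2, where the other 5 libraries had 15 to 49 reads. The groups overlapped and the test was not passed (log2 fold change -1.97, 95% interval -4.01 to 0.06, adjusted p = 0.083). Without scrambled replicate 2 the log2 fold change was -0.67 (adjusted p = 0.25), and without scrambled replicate 1 it was -2.46 (adjusted p = 0.0065). COL1A1 reads outnumbered COL1A2 reads 1322, 2084 and 2491 times in the knockdown libraries and 1487, 159.7 and 578 times in the scrambled libraries.

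COL3A1, the single chain of type III collagen, which is common in soft tissue and often found in fibrils with type I, went the other way. It fell to 174, 158 and 44.7 CPM in the knockdown libraries, against 785, 713 and 415 CPM in the scrambled libraries (log2 fold change -2.35, SE 0.59, adjusted p = 0.021). The groups did not overlap, but the libraries of each group spread widely, and replicate 3 was lowest in both. Leaving out the first knockdown library ended the call (adjusted p = 0.055), as did leaving out the first scrambled one (adjusted p = 0.052). The log2 fold change stayed between -2.65 and -1.94 when any library was left out. Its share of collagen reads was 1.63%, 1.58% and 0.418% in the knockdown libraries and 13.7%, 13.2% and 8.57% in the scrambled libraries. A listed microRNA gene, MIR3606, overlaps COL3A1 exons in GENCODE 29, as MIR711 does COL7A1 and MIR936 COL17A1, and antisense genes overlap exons of COL4A2, COL5A3, COL15A1 and COL16A1. Reads of such overlapping genes could not be told apart here.

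Type V collagen sits inside type I fibrils and sets their diameter, and 2 of its 3 chains rose. COL5A3 had the largest fold change among the collagen genes, with 41.8, 57.5 and 43.1 CPM in the knockdown libraries, against 3.91, 4.47 and 3.45 CPM in the scrambled libraries (12.0-fold, log2 fold change 3.58, SE 0.16, adjusted p = 9.3e-09). COL5A1 had 1309, 1116 and 1265 CPM in the knockdown libraries, against 326, 316 and 258 CPM in the scrambled libraries (4.11-fold, SE 0.10 on the log2 scale, adjusted p = 2.1e-08). In both genes every knockdown library was far above every scrambled one. COL5A2, the usual partner of COL5A1 in the trimer, had 285, 285 and 139 CPM in the knockdown libraries, against 263, 223 and 140.1 CPM in the scrambled libraries. Its groups overlapped, with replicate 3 again lowest in both (log2 fold change 0.18, 95% interval -0.68 to 1.04, adjusted p = 0.68).

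Type XI collagen, a relative of type V known from cartilage fibrils, rose in both measured chains of its own. COL11A1 had 176, 161 and 127 CPM in the knockdown libraries, against 96.5, 67.8 and 59.8 CPM in the scrambled libraries (2.07-fold, adjusted p = 0.0013). COL11A2 had 13.2, 12.4 and 16.4 CPM in the knockdown libraries, against 9.74, 9.99 and 8.37 CPM in the scrambled libraries (1.49-fold, adjusted p = 0.0045). Neither overlapped between the groups. COL2A1, the chain of cartilage type II collagen, was scarce and fell, with 1.33, 1.00 and 0.717 CPM in the knockdown libraries, against 2.58, 2.26 and 1.88 CPM in the scrambled libraries (log2 fold change -1.14, adjusted p = 0.0043). COL24A1, a minor fibrillar chain, had 4, 8 and 4 reads in the knockdown libraries and 28, 27 and 24 in the scrambled libraries (adjusted p = 0.00036). It could be tested only because of its scrambled libraries, and so had to differ if it was tested at all. COL27A1, the other minor fibrillar chain, showed no detectable difference, at 30.3, 31.4 and 47.1 CPM in the knockdown libraries and 31.8, 34.1 and 42.6 CPM in the scrambled libraries (95% interval of the log2 fold change -0.39 to 0.40).

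In the type IV class the common pair rose, and the rarer chains had low read numbers or no detectable difference. COL4A1 had 1489, 1635 and 1844 CPM in the knockdown libraries, against 389, 344 and 369 CPM in the scrambled libraries (log2 fold change 2.17, SE 0.09, adjusted p = 6.4e-09). COL4A2 had 1910.1, 1836 and 2296 CPM in the knockdown libraries, against 751, 727 and 791 CPM in the scrambled libraries (2.66-fold, SE 0.09 on the log2 scale, adjusted p = 1.2e-07). These genes encode the chains of the type IV trimer found in nearly all basement membranes, and they share the first stretch printed above. Counted per kilobase of transcript, COL4A2 and COL1A1 were the most abundant collagen transcripts in the knockdown libraries, at 310.1 and 299.8 CPM per kilobase. In the scrambled libraries COL1A1 stood at 227 and COL4A2 at 116 CPM per kilobase.

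COL4A5 and COL4A6, which lie on either side of the second stretch, did not both pass. COL4A5 showed no detectable difference, at 34.0, 32.8 and 28.8 CPM in the knockdown libraries and 34.5, 32.9 and 27.2 CPM in the scrambled libraries (log2 fold change 0.01, 95% interval -0.24 to 0.27). COL4A6 fell to 3, 6 and 2 reads in the knockdown libraries, against 34, 29 and 24 in the scrambled libraries (log2 fold change -2.80, SE 0.41, adjusted p = 8.3e-05). Their difference was not itself tested. Of the third pair, chains of kidney and lung basement membranes, COL4A4 was above the scrambled libraries in each knockdown library without passing, at 4.76, 3.95 and 3.53 CPM in the knockdown and 2.08, 3.17 and 3.19 CPM in the scrambled libraries (adjusted p = 0.056). COL4A3 was under the read minimum, with 7, 11 and 8 reads in the knockdown libraries and 0, 1 and 2 in the scrambled libraries. Its groups did not overlap either, and it passed as higher when the same edgeR test was run with no read minimum (adjusted p = 0.0029).

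All measured chains of the main type VI collagen rose. This collagen forms beaded filaments between basement membranes and the fibrillar matrix, from 1 chain each of COL6A1, COL6A2 and COL6A3. COL6A1 had 869, 719 and 859 CPM in the knockdown libraries, against 256, 247 and 217 CPM in the scrambled libraries (3.40-fold, adjusted p = 3.1e-08). COL6A2 had 612, 419 and 552 CPM in the knockdown libraries, against 287, 280.1 and 245 CPM in the scrambled libraries (1.95-fold, adjusted p = 8.1e-05). COL6A3 had 532, 470.0 and 507 CPM in the knockdown libraries, against 317, 196 and 184 CPM in the scrambled libraries (2.16-fold, adjusted p = 0.0015). None of the 3 overlapped between the groups. The alternative chains COL6A5 and COL6A6 had at most 6 reads in any library.

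For 5 of 6 chosen chain pairs, the read ratio was higher in every knockdown library than in every scrambled one. Higher refers to the chain named first, so the inverse ratio would be lower. COL6A1 enters both type VI pairs, which are therefore not independent. Other gene pairs were not tested, so how often ratios separate like this is unknown. Single genes separated in 67.4% of all those tested. For each of 6 pairs the ratio of reads was taken within a library, which removes the scaling between libraries. COL4A1 to COL4A2 was 0.780, 0.891 and 0.803 in the knockdown libraries, against 0.519, 0.474 and 0.467 in the scrambled libraries. COL6A1 to COL6A2 was 1.42, 1.72 and 1.55 in the knockdown libraries, against 0.893, 0.883 and 0.886 in the scrambled libraries. COL6A1 to COL6A3 was 1.63, 1.53 and 1.69 in the knockdown libraries, against 0.808, 1.26 and 1.18 in the scrambled libraries. COL5A1 to COL5A2 showed a wider gap, with 4.59, 3.92 and 9.11 in the knockdown libraries, against 1.24, 1.42 and 1.84 in the scrambled libraries. COL8A1 to COL8A2 was 97.1, 139.9 and 247 in the knockdown libraries, against 13.0, 14.2 and 18.7 in the scrambled libraries. In these 5 pairs the groups did not overlap, and each gave p = 0.1 in an exact 2-sided permutation test, the smallest that 3 against 3 libraries allow (0.12 adjusted over the 6 pairs). COL1A1 to COL1A2 overlapped (exact permutation p = 0.2). This exact test cannot give a p under 0.05 with 3 libraries a group.

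**Figure D4:**
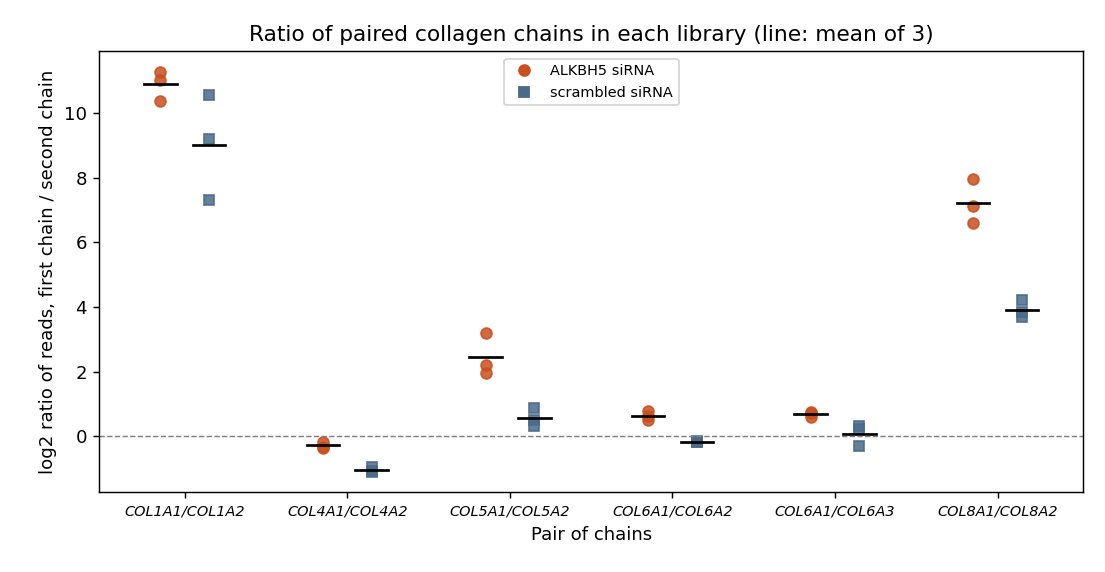
log2 ratio of the reads of paired chains within each library, with 1 circle per knockdown library left of 1 square per scrambled library and a line at the mean of 3. The ratio is higher in all knockdown libraries for each pair except COL1A1/COL1A2, whose scrambled libraries range from 7.32 to 10.54.

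COL8A1 had the largest rise outside the fibrillar class. It encodes a short chain of type VIII collagen, which forms a hexagonal network under corneal and vascular endothelium. It had 144, 236 and 165 CPM in the knockdown libraries, against 12.9, 17.1 and 21.5 CPM in the scrambled libraries (10.6-fold, log2 fold change 3.41, SE 0.24, adjusted p = 8.2e-06). The other type VIII chain, COL8A2, stayed near 1 CPM with overlapping groups, at 1.48, 1.68 and 0.666 CPM in the knockdown libraries and 0.999, 1.20 and 1.15 CPM in the scrambled libraries (95% interval of the log2 fold change -0.56 to 0.95). COL10A1, the network collagen of hypertrophic cartilage, had 0 reads in all 6 libraries, which allows up to 3 reads, or 0.128 to 0.159 CPM, per library.

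The FACIT genes were mixed, with 3 of 6 tested higher and 2 lower. COL12A1, which coats type I fibrils, had 351, 464 and 377 CPM in the knockdown libraries, against 237, 286 and 233 CPM in the scrambled libraries (1.58-fold, adjusted p = 0.00048). COL16A1 had 189, 169 and 188 CPM in the knockdown libraries, against 139, 133 and 152 CPM in the scrambled libraries (1.29-fold, adjusted p = 0.0021). COL22A1, known from tissue junctions such as that of muscle and tendon, had 41.8, 35.2 and 60.3 CPM in the knockdown libraries, against 14.2, 11.7 and 16.0 CPM in the scrambled libraries (3.28-fold, adjusted p = 4.3e-05). In each of the 3 the groups stood apart. COL14A1, the closest relative of COL12A1 in this class, moved in the opposite direction. It had 2.15, 1.63 and 1.13 CPM in the knockdown libraries, against 8.82, 9.51 and 7.22 CPM in the scrambled libraries (log2 fold change -2.38, adjusted p = 3.2e-06).

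Type IX collagen decorates type II fibrils in cartilage, and its main chain here was COL9A2. It had 93.2, 56.2 and 53.3 CPM in the knockdown libraries, against 114, 99.5 and 79.8 CPM in the scrambled libraries, with overlap and no pass (log2 fold change -0.53, adjusted p = 0.075). The call depended on the setting, since 8 alternatives passed, among them limma-voom (adjusted p = 0.022), and others such as DESeq2 did not (adjusted p = 0.12). Leaving out knockdown replicate 1, the highest of its group, gave a log2 fold change of -0.83 (adjusted p = 0.00023). COL9A3 had 2.00, 1.16 and 1.08 CPM in the knockdown libraries, against 2.66, 3.03 and 1.62 CPM in the scrambled libraries. It passed narrowly (log2 fold change -0.79, adjusted p = 0.046), and lost the call when any of 4 of the 6 libraries was left out (adjusted p up to 0.18). The opposite-strand gene TCFL5 overlaps an exon of COL9A3, so its reads may be mixed; TCFL5 was also lower (15.3 to 18.8 CPM in the knockdown libraries, 18.2 to 24.8 CPM in the scrambled libraries). COL9A1 had at most 1 read in any library.

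Of the remaining classes, COL13A1, a transmembrane collagen of cell-matrix contacts, had 43.1, 39.8 and 52.5 CPM in the knockdown libraries, against 16.4, 13.2 and 17.4 CPM in the scrambled libraries (2.88-fold, adjusted p = 1.7e-06). COL7A1, which builds the anchoring fibrils below the epidermal basement membrane, had 34.1, 30.1 and 50.6 CPM in the knockdown libraries, against 17.6, 20.8 and 21.4 CPM in the scrambled libraries (1.92-fold, adjusted p = 0.0011). COL18A1, a basement membrane collagen and the source of endostatin, had 75.4, 50.9 and 55.7 CPM in the knockdown libraries, against 34.3, 36.6 and 30.1 CPM in the scrambled libraries (log2 fold change 0.85, adjusted p = 0.00036). These rises did not overlap with the scrambled values. COL17A1, a transmembrane collagen of hemidesmosomes, had 3.12, 5.16 and 7.02 CPM in the knockdown libraries, against 4.54, 5.91 and 5.54 CPM in the scrambled libraries, with no detectable difference (adjusted p = 0.85). COL15A1, the relative of COL18A1, stood at 0.871 to 2.41 CPM in the knockdown libraries and 1.31 to 3.16 CPM in the scrambled libraries (adjusted p = 0.45).

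The 11 members under the read minimum had at most 20 reads, or 0.832 CPM, in any library. They were COL4A3, COL6A5, COL6A6, COL9A1, COL10A1, COL19A1, COL20A1, COL21A1, COL23A1, COL25A1 and COL28A1. With no read minimum, COL4A3 passed as given above, COL10A1 had no reads to test, and the other 9 did not pass (adjusted p from 0.053 for COL21A1 to 0.97 for COL25A1). COL26A1 is listed under its older symbol EMID2, which the naming rule does not take. It stood at 4.71, 3.58 and 3.23 CPM in the knockdown libraries, against 10.8, 10.9 and 11.5 CPM in the scrambled libraries (adjusted p = 1e-05).

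Genes that act with collagens were counted in 6 lists, to be read beside the 30.8% higher and 30.8% lower of all tested genes and their median log2 fold change of 0.01; no list was tested as a group. Of 18 genes that modify and fold collagen chains, all tested, 9 rose and 5 fell (median log2 fold change 0.25), and their summed level was 4968 to 5211 CPM in the knockdown libraries and 4256 to 4443 CPM in the scrambled libraries. P4HA1, a catalytic subunit of prolyl 4-hydroxylase, had 252 ± 29.2 CPM in the knockdown libraries and 127 ± 12.4 CPM in the scrambled libraries (SD, n = 3 each). The alternative subunit P4HA2, named after its values were seen, fell (adjusted p = 0.00044). It had 101 ± 5.00 CPM in the knockdown and 143 ± 15.5 CPM in the scrambled libraries. P4HA3 did not pass. The lysyl hydroxylase PLOD3 rose 1.81-fold and the prolyl isomerase FKBP10 1.66-fold. CRTAP, which helps to 3-hydroxylate proline in type I chains, moved against them, with 51.6 ± 6.89 CPM in the knockdown libraries and 254 ± 19.3 CPM in the scrambled libraries (log2 fold change -2.30, adjusted p = 1.1e-08). Its complex partner LEPRE1, named after its values were seen, fell as well, with 76.8 ± 4.14 CPM in the knockdown and 109 ± 6.47 CPM in the scrambled libraries, while the third partner PPIB did not differ detectably (747 ± 12.1 CPM in the knockdown and 728 ± 51.6 CPM in the scrambled libraries). SERPINH1, the collagen chaperone HSP47, did not pass either (623 ± 75.3 CPM in the knockdown and 685 ± 25.5 CPM in the scrambled libraries, adjusted p = 0.20).

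Of 11 genes of the coat and cargo machinery that exports procollagen from the endoplasmic reticulum, all tested, 1 rose and 7 fell (median log2 fold change -0.26). SEC23A had 103 ± 13.9 CPM in the knockdown libraries and 156 ± 6.83 CPM in the scrambled libraries, and the coat subunit SEC24D had 29.2 ± 1.15 CPM in the knockdown and 39.7 ± 0.466 CPM in the scrambled libraries. The procollagen receptor MIA3 had 63.2 ± 1.34 CPM in the knockdown and 82.0 ± 5.42 CPM in the scrambled libraries. TRAPPC2 fell by 0.60 on the log2 scale. The log2 fold changes of KLHL12, SAR1A and SEC31A were -0.06, 0.01 and 0.07, with adjusted p-values of 0.57, 0.94 and 0.44. None of the changes that passed in this list was larger than the 1.52-fold of SEC23A and TRAPPC2, and the gene that rose, SAR1B, did so by 0.33 on the log2 scale.

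Of 8 tested genes that trim propeptides or assist in this, 3 rose and 3 fell (median log2 fold change -0.40). BMP1, which removes the carboxyl propeptide of fibrillar procollagens, had 178 ± 5.37 CPM in the knockdown libraries and 96.3 ± 3.94 CPM in the scrambled libraries (1.84-fold, adjusted p = 8.4e-07). Its relative TLL1 fell 2.67-fold, ADAMTS3, an amino-propeptidase, 1.78-fold, and the enhancer protein PCOLCE2 1.47-fold.

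Among 11 collagen receptors, all tested, 5 rose and 1 fell (median log2 fold change 0.49). ITGA2, the integrin subunit that with ITGB1 binds collagen, had 553 ± 77.2 CPM in the knockdown libraries and 78.9 ± 15.7 CPM in the scrambled libraries (log2 fold change 2.81, adjusted p = 2.3e-07). ITGB1 rose 1.41-fold and GPR56, an adhesion receptor for type III collagen, 2.16-fold. The lower gene was the platelet collagen receptor GP6, at 0.774 ± 0.219 CPM in the knockdown and 6.35 ± 1.57 CPM in the scrambled libraries. The log2 fold changes of the receptor kinases DDR1 and DDR2 and of the uptake receptor MRC2 were 0.02, 0.24 and 0.09, with adjusted p-values of 0.84, 0.26 and 0.50.

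Of 8 tested proteins that bind fibrils, 3 rose and 3 fell (median log2 fold change 0.21). Of the lower genes, POSTN and DCN had at most 7 reads in any knockdown library. They could be tested only because of their scrambled libraries, and so had to differ if they were tested at all. The other lower gene was SPARC, named after its values were seen. It had 1428 ± 275 CPM in the knockdown and 2029.5 ± 78.1 CPM in the scrambled libraries (adjusted p = 0.0046). Its groups did not overlap. FN1, fibronectin, had 2451 ± 159 CPM in the knockdown libraries and 1169.9 ± 133 CPM in the scrambled libraries. THBS1, thrombospondin, rose 3.25-fold and TNXB 1.99-fold. POSTN, periostin, had 0.188 ± 0.18 CPM in the knockdown libraries and 1.49 ± 0.717 CPM in the scrambled libraries. Of 16 tested regulators of collagen genes 6 rose and 3 fell (median log2 fold change 0.14). CREB3L1, a factor that in mouse bone drives type I collagen transcription, had 41.8 ± 3.68 CPM in the knockdown libraries and 8.91 ± 1.30 CPM in the scrambled libraries (4.71-fold, adjusted p = 5.2e-08). The TGF-beta receptors TGFBR2 and TGFBR1 rose 1.97-fold and 2.24-fold, and the signal transducer SMAD3 fell 1.51-fold. SP1, SP3, ETS1, SKI, SKIL, SOX9 and TGFB1 did not pass, with log2 fold changes of 0.03, 0.12, 0.17, 0.18, 0.03, -0.18 and 0.03.

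**Figure D5:**
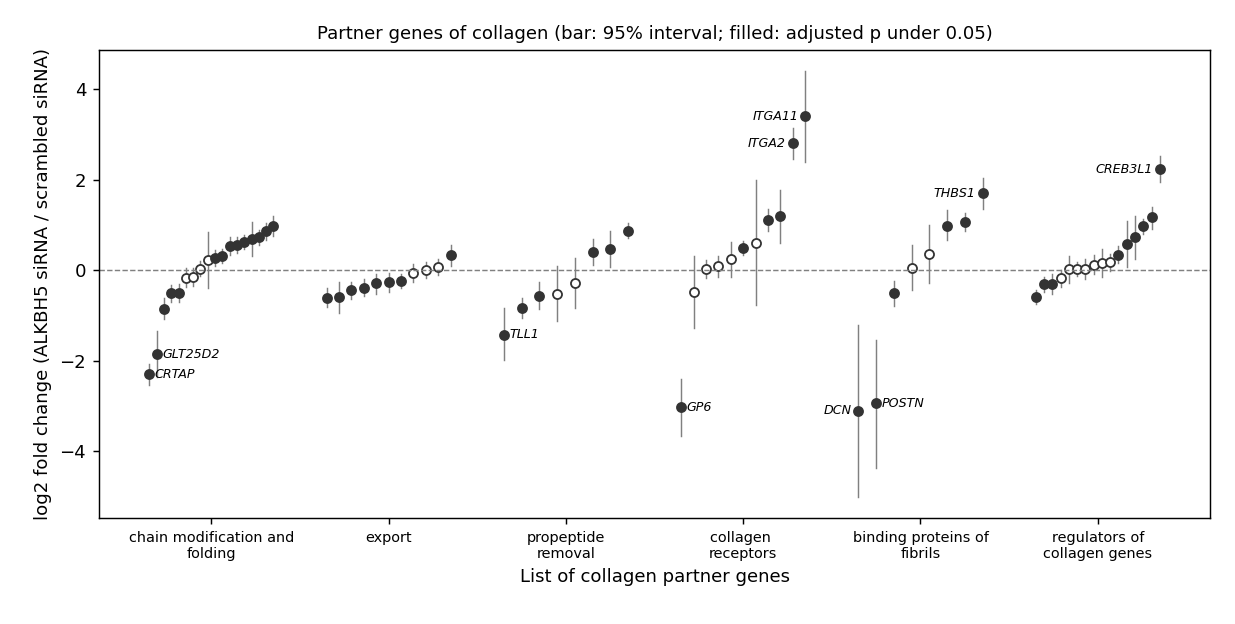
log2 fold change (ALKBH5 siRNA over scrambled siRNA) with 95% interval of the tested genes of each list of collagen partners; filled points passed an adjusted p of 0.05 and the genes farthest from 0 are named. Most export genes lie just under 0, while the receptors ITGA2 and ITGA11 lie above 2.

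Markers of other cell types were read in the same libraries. Their counts are to be read beside the 30.8% higher and 30.8% lower of all tested genes. Of 5 tested smooth muscle markers 4 passed higher (30.8% of all tested genes did) and SMTN did not pass (adjusted p = 0.07). LMOD1, 1 of the 4, had 8 to 20 reads in the scrambled libraries, and its groups overlapped. It could be tested only because of its knockdown libraries. The list's 7 genes together held 985 to 1265 CPM in the knockdown libraries and 220.5 to 238 CPM in the scrambled libraries. TAGLN alone averaged 874 CPM in the knockdown and 58.2 CPM in the scrambled libraries. MYH11, the myosin of mature smooth muscle, averaged 0.606 CPM in the knockdown and 0.159 CPM in the scrambled libraries, and DES, desmin, 0.155 CPM in the knockdown and 0.344 CPM in the scrambled libraries. Fibroblast markers (6 genes, all tested) held 474 to 519.6 CPM in the knockdown and 284 to 339 CPM in the scrambled libraries, with 2 higher and 1 lower. Of this, THY1 averaged 383 CPM in the knockdown and 179 CPM in the scrambled libraries. PDGFRA, PDGFRB and LUM did not pass. The lower gene DCN, with at most 7 reads in any knockdown library, could be tested only because of its scrambled libraries. Chondrocyte markers (9 genes) held 389 to 518 CPM in the knockdown and 505 to 595 CPM in the scrambled libraries, with 2 of 7 tested higher, 1 lower and CHAD at 0 reads. MATN1, 1 of the higher genes, had 5 to 13 reads in the scrambled libraries and could be tested only because of its knockdown libraries. Epithelial markers (8 genes) held 626 to 649 CPM in the knockdown and 538 to 635 CPM in the scrambled libraries, with 3 of 7 tested higher and 2 lower. CDH1, 1 of the higher genes, had 8 to 12 reads in the scrambled libraries and also needed its knockdown libraries to be tested. Of the lower genes CLDN7, with at most 6 reads in any knockdown library, could be tested only because of its scrambled libraries. Endothelial markers (6 genes) held 2.56 to 3.74 CPM in the knockdown and 6.96 to 9.78 CPM in the scrambled libraries, with 0 of 4 tested higher and 2 lower. Of the lower genes KDR, with at most 2 reads in any knockdown library, could likewise be tested only because of its scrambled libraries. VWF, the other lower gene, had 9 to 27 reads in the knockdown libraries and also needed its scrambled libraries to be tested. Leukocyte markers (6 genes) held 96.1 to 201 CPM in the knockdown and 28.1 to 31.5 CPM in the scrambled libraries, with 1 of 4 tested higher, 2 lower and CD3E at 0 reads. Of this, LCP1 averaged 135 CPM in the knockdown and 18.2 CPM in the scrambled libraries. PTPRC, 1 of the lower genes, had 9 to 18 reads in the knockdown libraries and could be tested only because of its scrambled libraries. The osteoblast list (10 genes) held 75.7 to 96.1 CPM in the knockdown and 64.9 to 74.8 CPM in the scrambled libraries, with 1 of 4 tested higher and 1 lower. The defining genes of mature osteoblasts were absent or nearly so, with IBSP at 0 reads and at most 2 reads of SP7 or BGLAP in any library. The part of these cell-type genes in the collagen results was not tested.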

How the data were processed

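Per the file headers, each deposited file gives unnormalised read counts for gene symbols. According to the submitters' processing notes, hg19 and CASAVA 1.8.2, TopHat2, SAMtools and HTSeq were used. Annotation and strand setting: not given in the sources used here. All 23233 lines of the joint table matched the single files. HTSeq's summary lines (reads outside genes, ambiguous or not uniquely aligned) stayed out of library sizes and tests. No library repeated another: chi-square per degree of freedom within groups was 5.96 to 16.3.

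The main test was edgeR 4.0.16 under R 4.3.3: filterByExpr, TMM, robust glmQLFit and glmQLFTest, 2-sided, with group as the sole term. Benjamini-Hochberg adjustment ran over all 14504 tested genes, and calls used 0.05. A log2 fold change above 0 means higher with ALKBH5 siRNA. Unless another test is named, every adjusted p comes from this fit. CPM values carry the TMM factors, and CPM per kilobase divides by the longest coding transcript of GENCODE 29. The procedure was tested on simulated data for this comparison (14385 genes tested), in which 200 genes had been changed. It found 65.7% of 1.5-fold, 88.4% of 2-fold and 98.4% of 4-fold changes, and 14 of its 182 calls were false. In the real data 61.6% of tested genes passed, so these rates may not carry over.

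Members, classes and lists were chosen with earlier results of these data known. By rule, values by library are given for each called collagen gene and each uncalled one of at least 5 CPM; from each partner list, up to 4 called genes with the smallest adjusted p and uncalled genes of at least 50.0 CPM are named. Alternatives were RLE scaling, library totals, no filter, a 1 CPM filter, DESeq2 1.42.0, limma-voom (limma 3.58.1), no robust moderation, a replicate block, a GC and length offset (values for 95.2% of genes) with and without that block, and each library left out. A test against a 1.5-fold change was added after seeing the data.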

Additional observations from a re-analysis of the deposited data

How the results depend on the processing

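The counts of higher and lower collagen genes stayed within 1.5 times of 17 and 6 under every alternative, the widest move being that of the 1.5-fold test added after seeing the data, which asks for a larger change (12 higher, 4 lower). Of the 23 collagen genes that passed, 21 to 23 still passed with the same sign elsewhere, and 16 under that test. It called 3 fibrillar genes higher and 1 gene of the other classes lower, and among all tested genes 1891 higher and 1710 lower. Lower genes of the other classes numbered 1 with DESeq2, and 1 to 4 when single libraries were left out. COL9A3 was also lost with DESeq2 (adjusted p = 0.076) and limma-voom (adjusted p = 0.051). COL1A2 passed under 3 alternatives, COL4A4 under 3 and COL9A2 under 8. With no read minimum 18 collagen genes were higher, COL4A3 included. Library totals moved the median of all genes by -0.07 (log2).

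The replicate numbers were not shown to pair the libraries: deviations of same-numbered libraries correlated at 0.331, 0.0578 and 0.351, and scrambled replicate 2 correlated better with knockdown replicate 1 (0.0768). With the replicate block, 18 collagen genes were higher and 7 lower, COL9A2 among the lower (adjusted p = 0.00015). With the GC and length offset and the block these were 17 and 7 collagen genes.

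Some genes near 0 that had not passed changed sign, and the cause was not tested. With library totals the log2 fold change was -0.06 for COL27A1 and SAR1A, -0.05 for COL4A5, -0.04 for DDR1, SKIL and TGFB1, and -0.03 for PPIB and SP1. With the GC and length offset it was -0.14 for COL27A1, -0.18 for SKIL (adjusted p = 0.041), -0.01 for DDR1, -0.02 for MRC2, SAR1A and SP1, -0.03 for TGFB1 and 0.02 for KLHL12. The replicate block added to that offset gave -0.15 for COL27A1, -0.18 for SKIL (adjusted p = 0.018), -0.01 for DDR1, -0.02 for MRC2, SAR1A and SP1, -0.03 for TGFB1 and 0.02 for KLHL12. COL27A1 was -0.01 with limma-voom and -0.01 with the replicate block. With single libraries left out, COL5A2 ranged from -0.05 to 0.45, COL27A1 from -0.23 to 0.13, COL4A5 from -0.09 to 0.09, COL8A2 from -0.05 to 0.51 and COL17A1 from -0.36 to 0.20. In the same way DDR1 ranged from -0.06 to 0.09, MRC2 from -0.03 to 0.18, PPIB from -0.02 to 0.07, SAR1A from -0.06 to 0.06, SKIL from -0.05 to 0.14 and TGFB1 from -0.09 to 0.19.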
